A study of Mus musculus with 21 samples.

Results

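Keratin-associated proteins are the matrix that cements the hard keratin filaments of hair and of other hard skin structures. The genes for them, named Krtap, were taken as all protein-coding rows of the gene table whose name begins with Krtap, which gave 49 of 23713 genes. RNA was measured by bulk sequencing of polyA RNA from keratinocytes, the epithelial cells of the epidermis, which were freed from mouse tail skin with trypsin and dispase. 3 mouse models of basal cell carcinoma (BCC), a tumour that arises when Hedgehog signalling stays on in skin, were each set against their own tumour-free controls (Con), with 4 BCC and 3 Con libraries per model and 21 libraries in all. The models are SmoM2, named for an activated form of the Hedgehog signal transducer Smoothened and sampled 29 days after tumour induction; Gnas-eKO, named for a knockout of the gene of the stimulatory G protein alpha subunit and sampled at 42 days; and PKI, which shares its name with an inhibitor of protein kinase A and was sampled at 57 days. The labels give no strain, age, sex, allele, promoter or Cre driver for any group, and do not say what the Con mice carried. Each model is also its own batch (A, B or C), so model, day and batch cannot be told apart. Each column of the table has a code of its own, and the SmoM2 BCC codes begin with other letters than the SmoM2 Con codes; what the codes stand for is not stated.

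Hair shaft cells switch on Krtap genes late in their differentiation, after the hard keratins. The protein classes differ in makeup: the high glycine-tyrosine proteins (families 6, 7, 8, 19, 20, 21 and 22), the high sulfur proteins, rich in cysteine (families 1, 2, 3, 11, 13, 14, 15, 16, 24, 26 and 27), and the ultra-high sulfur proteins, with still more cysteine (families 4, 5, 9, 10, 12 and 17). In tail skin, hair is not the sole site of hard keratins, since the scales between the follicles also make hard keratins such as Krt84 and Krt36. By family number, 14 members are high glycine-tyrosine, 16 high sulfur and 15 ultra-high sulfur genes, and 4 were not classed, among them Krtap16-3, which shares stretches of 50 bases with Krtap19 genes and none with Krtap16-1.

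On the mouse genome build GRCm38 the members lie in 5 runs. The largest by number, with 23 members, spans 960.5 kb of chromosome 16, and 20 members span 443.9 kb of chromosome 11. The rest are 3 genes on chromosome 10, 2 on chromosome 1 and 1 on chromosome 7. Members are short, with 365 to 1888 exonic bases (median 828), and 45 of the 49 have 1 exon. Tandem copies share sequence: 14 members share no stretch of 50 bases with another gene, while 11 share over 20% of such stretches. Krtap3-3 shares 41.3% of them with Krtap3-2 and Krtap3-1, Krtap3-2 shares 28.9%, Krtap6-1 shares 28.3% and Krtap13 shares 24.9%, and the counts of these close copies are uncertain to that extent. Of the members, 6 overlap another gene, among them Krtap14 and Krtap15, which overlap each other on opposite strands, and Krtap24-1.

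The start of these genes has a common look, shown here for 7 members on which the results turn: the 3 copies of the Krtap3 family and Krtap6-2, which fell, Krtap17-1 and Krtap24-1, which were called higher in 1 model, and Krtap11-1, which was called in none of the 3 models with all libraries in the fit. Each line gives the 100 bases before the RefSeq gene start on GRCm38, read 5′ to 3′ on the gene's strand (the minus strand for all 7), with the letters TATAAA in capitals. TATAAA is the core of the TATA box, a promoter element at which the transcription machinery assembles.
Krtap3-1: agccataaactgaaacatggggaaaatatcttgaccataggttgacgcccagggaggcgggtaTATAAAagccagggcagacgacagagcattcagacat
Krtap3-2: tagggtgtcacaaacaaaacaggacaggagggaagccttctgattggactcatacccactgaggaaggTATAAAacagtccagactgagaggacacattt
Krtap3-3: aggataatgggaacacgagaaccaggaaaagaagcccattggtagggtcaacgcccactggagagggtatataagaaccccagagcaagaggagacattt
Krtap6-2: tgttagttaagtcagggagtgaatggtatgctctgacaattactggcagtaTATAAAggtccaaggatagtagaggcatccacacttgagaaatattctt
Krtap11-1: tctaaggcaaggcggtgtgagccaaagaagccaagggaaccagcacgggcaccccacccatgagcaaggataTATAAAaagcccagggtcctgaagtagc
Krtap17-1: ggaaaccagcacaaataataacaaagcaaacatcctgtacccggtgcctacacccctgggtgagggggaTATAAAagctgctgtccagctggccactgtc
Krtap24-1: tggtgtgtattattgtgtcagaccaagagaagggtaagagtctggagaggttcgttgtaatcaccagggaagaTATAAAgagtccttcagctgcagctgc
These stretches are chr11:99566631-99566730 (Krtap3-1), chr11:99556854-99556953 (Krtap3-2), chr11:99550864-99550963 (Krtap3-3), chr16:89420112-89420211 (Krtap6-2), chr16:89571184-89571283 (Krtap11-1), chr11:99993995-99994094 (Krtap17-1) and chr16:88612280-88612379 (Krtap24-1). TATAAA on either strand was found in the last 60 bases before the start in 32 of the 43 members that have a RefSeq promoter (74.4%), against 3.92% of 32851 promoters of all genes. Among the members that hold it, its first base lies 27 to 55 bases before the start, with a median of 31. The 3 Krtap3 copies differ here: Krtap3-1 and Krtap3-2 have TATAAA, and Krtap3-3, the most abundant member, has TATATAA in its place. TATATAA, whose last letters can overlap TATAAA, was found on either strand of the same 60 bases in 34.9% of the members' promoters against 1.06% of all. Krtap17-1 and Krtap24-1, called higher in PKI, have TATAAA there, and so do some genes called lower, such as Krtap3-1 and Krtap3-2. Krtap3-3, Krtap6-1 and Krtap21-1, called lower in SmoM2 and PKI, lack it in these 60 bases. The core letters bound by the hair factor Lef1 and its relatives, CTTTGA and CTTTGT, were searched on both strands of the 250 bases before the start. CTTTGA was found in 27.9% of the members' promoters against 13.8% of all, and CTTTGT in 32.6% against 16.5%. Tandem copies are not independent, so these shares are descriptions.

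Levels are given in CPM, a gene's share of all counts of its library on a fixed scale that allows for library size and makeup. Library totals were 16645810 to 22251107 counts, and 3 counts, the upper limit that a count of 0 allows, correspond to at most 0.189 CPM. All 49 members together took 0.0149% to 0.123% of the counts in Con libraries. The hard keratin Krt84 alone stood at 7029 to 28872 CPM in the same libraries, and basal (Krt5, Krt14) and suprabasal (Krt10) keratins were high in every library. Xist, the RNA of the inactive X chromosome, was at 513 to 1280 CPM in 10 libraries and at 0.302 CPM or less in the other 11, and was found in 1 SmoM2 Con library, 2 Gnas-eKO Con libraries, 1 PKI Con library and 2 BCC libraries of each model.

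In control tail epidermis, 3 genes stood above all other members. Per kilobase of exon, the mean over the 9 Con libraries was 188 CPM for Krtap3-3 and 171 for Krtap3-1, both high sulfur genes on chromosome 11, and 149 for Krtap7-1, a high glycine-tyrosine gene on chromosome 16. Next in order came Krtap13 at 55.5 CPM per kb, Krtap6-1 at 36.7, Krtap8-1 at 34.3, Krtap6-5 at 29.8 and Krtap3-2 at 24.5. Apart from the step from Krtap7-1 to Krtap13, neighbours in this order differ by less than the spread between control libraries given below. Of the 49 members, 32 had a mean under 1 CPM over the Con libraries. Krtap17-1, at 2.48 CPM per kb, led the 15 ultra-high sulfur genes, and 3.95 CPM in 1 library was its highest value in Con. The 27 members that were tested in no model held 1.73% of all Krtap counts, and the highest of their values in any library was 4.96 CPM (Krtap2-4).

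Krtap RNA varied far more between control libraries than RNA of most genes. Summed over the 49 members, it was 198, 477 and 1190.05 CPM in SmoM2 Con replicates 1 to 3, 590.1, 329 and 153 CPM in Gnas-eKO Con, and 1250.45, 423 and 247 CPM in PKI Con. The highest control library of a model thus had 6.00, 3.85 and 5.06 times the lowest in the 3 models. The SD of log2 CPM (prior count 2) within Con groups had a median of 1.37 over the 27 members that passed the filter on low counts in the Con libraries, against 0.183 over 16298 genes. For 26 of these 27 members the SD was above the level that 90% of all genes stay under (0.592). The biological coefficient of variation that edgeR estimates for each gene had a median of 0.843 over the members and 0.144 over all genes. Krtap14 (SD 2.01) and Krtap6-2 (1.96) varied most, and Krtap24-1 (0.592) and Krtap17-1 (0.685) least.

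The members did not all peak in the same control library. Among the 17 members with a mean of at least 1 CPM in Con libraries, 13 were highest in SmoM2 Con replicate 3, while Krtap11-1, Krtap14, Krtap15 and Krtap17-1 were highest in SmoM2 Con replicate 2. In Gnas-eKO Con all 17 were highest in replicate 1. In PKI Con 16 were highest in replicate 1, and Krtap17-1 in replicate 2. Krtap14 shows the contrast: it was at 3.17, 5.91 and 0.432 CPM in SmoM2 Con replicates 1 to 3, whereas Krtap6-2 was at 1.19, 5.39 and 40.2 CPM in the same libraries. The replicate with the lowest Krtap14 was thus the one with the highest Krtap6-2.

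Xist moved with the summed level among controls: in each model every Con library with Xist had a higher Krtap sum than every Con library without it. The same did not hold among BCC libraries, where the sums with Xist (61.7 and 45.4 CPM in SmoM2, 30.03 and 307 in Gnas-eKO, 30.4 and 48.7 in PKI) overlapped those without it (59.96 and 51.4, 33.9 and 24.3, 66.9 and 35.1). With a term for Xist in the fits, chosen after seeing the data, 11 members were called lower in SmoM2 and 11 in PKI, and the part of Xist status in the spread among controls was not tested. What share of all genes was called with that term is not given here. Krt84 was also highest in the library with the highest Krtap sum in SmoM2 Con (28872 CPM) and PKI Con (16836 CPM), but not in Gnas-eKO Con, where it was 17567, 22731 and 10212 CPM. The 3 Con groups did not differ for any of the 27 members in edgeR's F test at an adjusted p under 0.05, a call that 1.64% of all genes passed. In that test 1 member (Krtap24-1) had an unadjusted p under 0.05, as had 2046 of all 16298 genes tested.

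**Figure D1:**
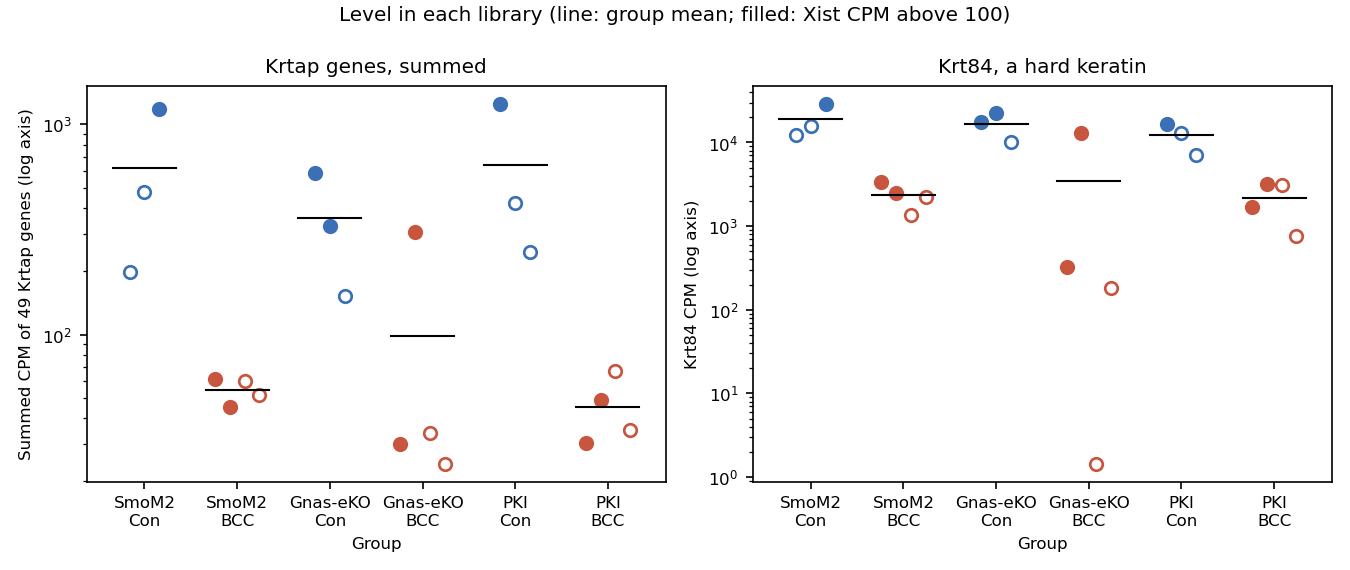
Each point is 1 library; the left panel shows the summed CPM of the 49 Krtap genes and the right panel the CPM of the hard keratin Krt84, on log axes, with the group mean as a line and filled points for libraries with Xist above 100 CPM. SmoM2 and PKI BCC libraries lie below all their Con libraries on the left, while 1 Gnas-eKO BCC library (307 CPM) lies among the Con libraries.

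In SmoM2 tumour epidermis Krtap RNA was lower by about an order of magnitude. The sum was 61.7, 45.4, 59.96 and 51.4 CPM in the 4 BCC libraries against 198 or more in Con, so the groups did not overlap, and the mean in BCC was 8.78% of that in Con. Of the 49 members 20 passed the filter on low counts and were tested, and 13 of them were called lower and 0 higher by edgeR's quasi-likelihood test at an adjusted p under 0.05. Over all genes tested in this model 13.5% were called lower and 16.2% higher. The filter asks for about 10 counts in 3 libraries: 7 of the 13 (Krtap3-1, Krtap3-2, Krtap3-3, Krtap6-1, Krtap7-1, Krtap8-1 and Krtap13) passed it in each group taken alone, and 6 (Krtap6-2, Krtap6-5, Krtap13-1, Krtap16-3, Krtap21-1 and Krtap22-2) only through Con, where they are high, so the filter favoured a fall in these 6. The median log2 fold change of the 20, these 6 among them, was -3.10, and that of all genes 0.000538. In these bulk libraries, fewer cells that make Krtap RNA and less Krtap RNA per cell cannot be told apart.

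All 7 high glycine-tyrosine genes that were tested in SmoM2 fell, 4 of them genes that passed the filter only through Con. Krtap7-1 (chr16:89507703-89508323) was at 42.1, 75.5 and 202 CPM in Con and at 1.63, 5.31, 3.93 and 2.87 CPM in BCC. Every BCC library was below every Con library, and the log2 fold change came to -4.94 ± 0.708 (SE, 3 Con and 4 BCC libraries; adjusted p = 0.00429 by edgeR). Krtap6-5 (chr16:89047289-89047883) had the lowest fold change of the members called in SmoM2, from 3.21, 9.63 and 49.7 CPM in Con to 0.407, 0.289, 0.185 and 0.0504 CPM in BCC. Its log2 fold change was -6.41 ± 1.26 (SE; adjusted p = 0.0128 by edgeR), from 20 counts in the 4 BCC libraries. Krtap6-2 (-5.62 ± 1.42, edgeR adjusted p = 0.0316), Krtap21-1 (-5.50 ± 1.16, 0.0146) and Krtap6-1 (-4.97 ± 1.23, 0.0307) fell as well. The other members of this class that fell were Krtap22-2 and Krtap8-1, with log2 fold changes of -4.44 and -3.001.

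Of 11 high sulfur genes tested in SmoM2, 5 fell, among them the whole Krtap3 family. Krtap3-3 (chr11:99550130-99550865) was at 58.9, 128 and 283 CPM in Con and at 25.3, 8.25, 9.72 and 18.4 CPM in BCC. The groups did not overlap, and the log2 fold change was -3.33 ± 0.685 (SE; adjusted p = 0.0170 by edgeR). Krtap3-1 (chr11:99566027-99566630) was at 21.0, 85.1 and 231 CPM in Con and at 21.0, 7.19, 7.36 and 12.6 CPM in BCC. The lowest Con and the highest BCC library all but touched, and the log2 fold change was -3.20 ± 0.890 (SE; adjusted p = 0.0465 by edgeR). Krtap3-2 fell by 4.28 ± 0.818 (SE; adjusted p = 0.0113 by edgeR) on the log2 scale and Krtap13 by 4.36 ± 0.986 (SE; adjusted p = 0.0234 by edgeR). The other genes called lower were Krtap13-1 and the unclassed Krtap16-3, both tested only through their Con values. The 7 tested members without a call were Krtap1-5, Krtap11-1, Krtap14, Krtap15, Krtap16-1, Krtap17-1 and Krtap26-1. Krtap17-1 alone among the 20 had a positive value, 0.42 ± 0.456 (SE), with 1.70, 3.21 and 2.00 CPM in Con and 1.94, 2.36, 5.97 and 1.86 CPM in BCC. In 16 of the 20 members the 4 BCC values were all below the 3 Con values and in 0 all above them, as they were in 19.2% and 19.6% of all genes tested.

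The size of the SmoM2 count rests on few libraries. Without BCC replicate 1, 2, 3 or 4 it was 7, 6, 8 or 6 members called lower, and without Con replicate 1, 2 or 3 it was 16, 9 or 13. The shares of all genes called in the same fits are not given here. A change in calls over all genes thus cannot be told apart from one particular to the members. Krtap3-1, Krtap6-1, Krtap6-2 and Krtap13 lost their calls without any 1 of the 4 BCC libraries, Krtap3-1 also without Con replicate 2 or 3 and in the joint fit of 21 libraries (edgeR adjusted p = 0.0528), and Krtap3-3 and Krtap21-1 without BCC replicate 3. With no filter on low counts Krtap3-1, Krtap6-1 and Krtap6-2 also lost theirs (edgeR adjusted p of 0.0712, 0.0537 and 0.0570). The mean BCC sum was 16.2% of the Con mean without Con replicate 3, the library with Xist.

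**Figure D2:**
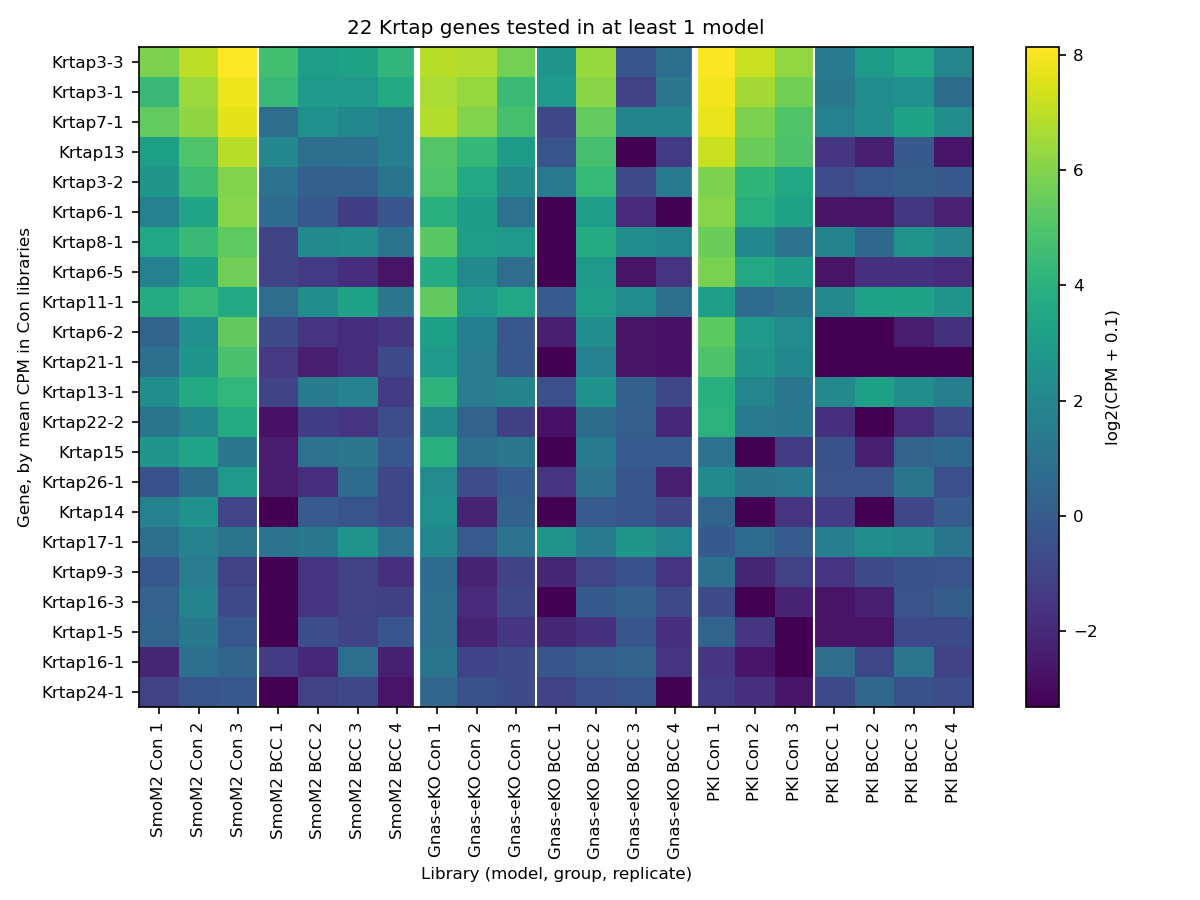
Colour gives log2(CPM + 0.1) of the 22 members tested in at least 1 model, in rows by mean CPM over the Con libraries, for the 21 libraries in columns; thick lines divide the models and thin lines Con from BCC. Most rows are brightest in SmoM2 Con 3, Gnas-eKO Con 1 and PKI Con 1, and Krtap17-1 is brighter in the PKI BCC columns than in the PKI Con columns.

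In PKI tumours most of the abundant Krtap genes fell. The scarce Krtap17-1 rose, and Krtap24-1, scarcer still, was called higher but had been tested only through its BCC values. The sum was 30.4, 48.7, 66.9 and 35.1 CPM in BCC against 247 or more in Con, which is 7.07% of the Con mean and 13.5% of it without Con replicate 1. Of 18 members tested, 11 were called lower and 2 higher, against 15.8% and 18.7% of all genes tested in this model. Of the 11, 5 (Krtap3-1, Krtap3-2, Krtap3-3, Krtap7-1 and Krtap26-1) passed the filter in each group taken alone, and 6 (Krtap6-1, Krtap6-2, Krtap6-5, Krtap13, Krtap21-1 and Krtap22-2) only through Con. In these 6, which are high in Con, the filter favoured a fall. The median log2 fold change was -4.43 over the 18 members, these 6 among them, and -0.00118 over all genes. Without a filter on low counts the median of the members was much less negative, as given at the end, so -4.43 does not describe the whole family. The 4 BCC values were all below the 3 Con values in 11 members (20.8% of all genes) and all above them in 2 (22.4% of all genes). The median was -1.24, -2.23 and -2.25 without Con replicate 1, 2 or 3, when 21, 22 and 22 members were tested, and the count called higher was 4 without Con replicate 1 and 1 without Con replicate 2 or 3 or BCC replicate 2 or 3. Shares of all genes called in these fits are not set beside these counts.

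Among the high glycine-tyrosine genes, 6 of 7 tested fell in PKI, some to the edge of detection. Of the 6, only Krtap7-1 passed the filter in each group taken alone. Krtap6-1, Krtap6-2, Krtap6-5, Krtap21-1 and Krtap22-2 passed it only through Con, where they are high, so the filter favoured a fall in them. Krtap21-1 (chr16:89403218-89403868) was at 30.8, 6.19 and 4.02 CPM in Con and had a count of 0 in every PKI BCC library. Against 3 counts over the 4 BCC libraries together (0.0377 CPM) its mean was at least 363-fold lower (edgeR adjusted p = 0.0347). Without Con replicate 1, the highest of the 3, that bound was 135-fold. Krtap6-1 (chr16:89031699-89032292) was at 67.5, 14.8 and 9.78 CPM in Con and at 0.0513, 0.0516, 0.267 and 0.110 CPM in BCC, a log2 fold change of -7.85 ± 1.06 (SE; adjusted p = 0.00259 by edgeR). Krtap6-2 (-7.64 ± 1.19, edgeR adjusted p = 0.00390) rested on 6 counts and Krtap6-5 (-7.24 ± 1.01, edgeR adjusted p = 0.00270) on 13 counts in the 4 BCC libraries. Krtap7-1 was at 219.9, 58.3 and 33.0 CPM in Con and at 3.18, 4.85, 9.78 and 4.93 CPM in BCC, and fell by 4.16 ± 0.786 (SE; adjusted p = 0.0100 by edgeR) on the log2 scale. Krtap22-2 fell too. Krtap8-1, of the same class, was at 46.8, 4.04 and 1.98 CPM in Con and 3.49, 1.39, 5.96 and 3.67 CPM in BCC, and these values overlap.

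Of 9 high sulfur genes tested in PKI, 5 fell, 3 were not called and 1, Krtap24-1, was called higher. Krtap3-3 was at 274, 144 and 77.7 CPM in Con and at 2.51, 7.48, 11.4 and 3.62 CPM in BCC (log2 fold change -4.69 ± 0.668, SE; adjusted p = 0.00363 by edgeR). Krtap3-1 (-5.16 ± 0.697) and Krtap3-2 (-5.20 ± 0.659) fell alike, with edgeR adjusted p of 0.00300 and 0.00165. Krtap13 (chr16:88750744-88751635) fell by 7.76 ± 0.903 (SE; adjusted p = 0.00177 by edgeR) on the log2 scale, from 147, 47.2 and 30.9 CPM to 0.257, 0.103, 0.845 and 0.0548 CPM. Its neighbour Krtap13-1, of the same family, was at 14.4, 3.60 and 2.16 CPM in Con and at 4.16, 9.18, 4.94 and 2.91 CPM in BCC, and was not called. Krtap11-1 likewise overlapped, with 8.35, 1.51 and 2.04 CPM in Con and 4.10, 9.23, 9.56 and 5.98 CPM in BCC. In the BCC libraries Krtap11-1 made up 15.9% of the mean Krtap sum and Krtap13-1 11.7%, against 0.620% and 1.05% in the PKI Con libraries. Krtap26-1 fell by 1.58 ± 0.471 (SE; adjusted p = 0.0282 by edgeR).

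The members called higher in PKI are both scarce. Krtap17-1 (chr11:99993234-99993994), an ultra-high sulfur gene at one end of the chromosome 11 run, was at 0.861, 1.51 and 0.900 CPM in Con and at 2.92, 5.06, 4.14 and 2.08 CPM in BCC. All BCC values were above all Con values, with a log2 fold change of 1.72 ± 0.378 (SE; adjusted p = 0.00749 by edgeR). Krtap24-1 (chr16:88610705-88612279), a high sulfur gene that overlaps Gm49688 on the other strand, was at 0.304, 0.189 and 0.0600 CPM in Con and at 0.513, 1.34, 0.623 and 0.548 CPM in BCC. Its log2 fold change was 1.98 ± 0.612 (SE; adjusted p = 0.0328 by edgeR). Its Con values are near the level of 3 counts, with 0 of 3 Con libraries at the filter's level against 4 of 4 BCC libraries, so it was tested in PKI only through the group where it is high, and its call is no support for a rise. The call was lost without Con replicate 2 (edgeR adjusted p = 0.0937), without Con replicate 3 (0.111) and in the joint fit of 21 libraries (0.108). Without BCC replicate 2 or 3, or with a stricter filter, Krtap24-1 was not tested. The Krtap21-1 call was lost without Con replicate 2 or without any 1 of the 4 BCC libraries (edgeR adjusted p of 0.0509 to 0.0827), and with no filter on low counts (0.109).

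**Figure D3:**
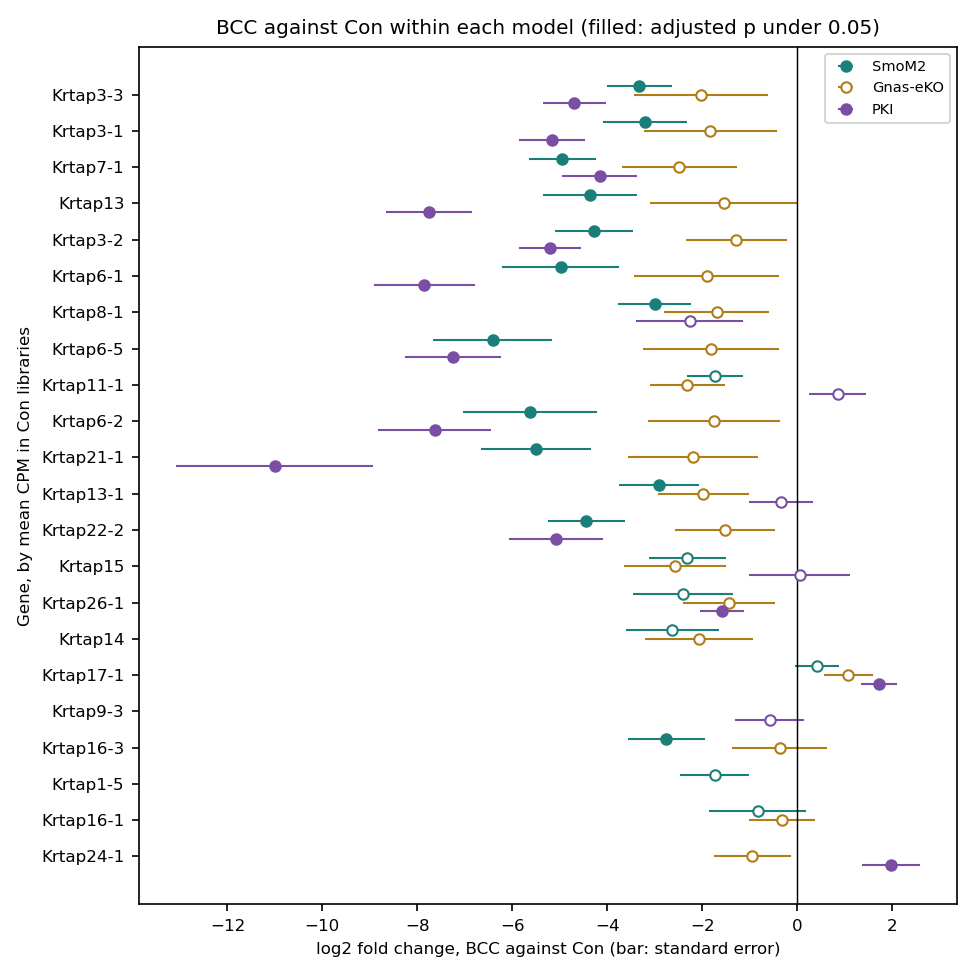
Points give the log2 fold change of BCC against Con for the members tested in each model, with bars of 1 standard error and filled points for an adjusted p under 0.05; members are ordered by mean CPM in Con libraries. SmoM2 and PKI points of the abundant members lie far to the left, no Gnas-eKO point is filled, and Krtap17-1 and Krtap24-1 in PKI lie to the right of 0.

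The genes that fell in SmoM2 and in PKI overlapped. Both models called lower 10 members: Krtap3-1, Krtap3-2, Krtap3-3, Krtap6-1, Krtap6-2, Krtap6-5, Krtap7-1, Krtap13, Krtap21-1 and Krtap22-2. These are 10 of the 13 called lower in SmoM2 and 10 of the 11 in PKI. Over all genes, the 824 called lower in both were 37.2% of those called lower in SmoM2 and 31.8% of those in PKI. Only Krtap3-1, Krtap3-2, Krtap3-3 and Krtap7-1 of the 10 passed the filter in each group of both models. Krtap8-1, Krtap13-1 and Krtap16-3 were called in SmoM2 and not in PKI, where Krtap16-3 was not tested, and Krtap26-1 was called in PKI and not in SmoM2. Of the 10 shared genes, Krtap3-1, Krtap3-3, Krtap6-1, Krtap6-2, Krtap13 and Krtap21-1 lost a call in at least 1 model without some single library, as given above, and Krtap22-2 was not followed through these fits.

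In Gnas-eKO no member was called, and 1 library decided that count. Of 20 members tested, edgeR called 0 lower and 0 higher, and DESeq2 called none either. In edgeR 2 members had an unadjusted p under 0.05, as had 3212 of all 16409 genes tested. Over all genes tested 0.165% were called lower and 1.46% higher. The log2 fold change was negative in 19 of the 20 members, with a median of -1.77, against 0.0201 over all genes, and the median was -0.61 without Con replicate 1 and -3.23 without BCC replicate 2. In 0 members were the BCC values all below or all above the Con values, against 9.7% and 9.97% of all genes tested. The summed level was 590.1, 329 and 153 CPM in Con and 30.03, 307, 33.9 and 24.3 CPM in BCC. BCC replicates 1, 3 and 4 were below every Con library, while replicate 2 lay between Con replicates 3 and 2. Krtap3-3 shows the same: 120.5, 109 and 53.6 CPM in Con and 6.37, 84.1, 0.748 and 1.64 CPM in BCC, with a log2 fold change of -2.02 ± 1.41 (SE; adjusted p = 0.486 by edgeR).

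Replicate 2 also stood apart in the hard keratins of the scale. Krt84 was at 10212 to 22731 CPM in Gnas-eKO Con, at 326, 1.44 and 183 CPM in BCC replicates 1, 3 and 4, and at 13164 CPM in BCC replicate 2. The fibroblast markers did not move together in it. Dcn, a matrix proteoglycan, was at 569 CPM in this library and at 56.2 to 251 CPM in the other BCC libraries, whereas Col1a1, a collagen chain, was at 2.57 CPM against 12.1 to 28.9 CPM. The other 3 markers (Col1a2, Col3a1 and Pdgfra) were also lowest in replicate 2 of the 4 BCC libraries. Summed over the 5 genes, replicate 2 was at 579 CPM, the other BCC libraries at 91.6 to 282 CPM and Con at 15.9 to 27.3 CPM. The labels place the library in the BCC group, and it stays there in the tests.

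BCC replicate 2 was singled out after its Krtap values were seen, so the fit without it describes the other libraries and is no independent test. Without it, edgeR called 11 of 20 members lower and 0 higher, against 4.43% and 7.36% of all genes in the same fit. Of the 11, 3 (Krtap3-2, Krtap3-3 and Krtap11-1) passed the filter in each group taken alone and 8 only through Con, where they are high. The 11 called lower were Krtap3-1, Krtap3-2, Krtap3-3, Krtap6-1, Krtap6-2, Krtap6-5, Krtap7-1, Krtap11-1, Krtap13, Krtap13-1 and Krtap21-1. Of the 10 genes called lower in both other models, 9 are among these 11, and Krtap22-2 is not. Krtap6-1 had the lowest log2 fold change in that fit (-7.17 ± 1.13, SE; adjusted p = 0.00722 by edgeR), and Krtap3-3 the lowest adjusted p (-4.98 ± 0.705, SE; adjusted p = 0.00483 by edgeR). Krtap11-1 (-2.99 ± 0.791, SE; adjusted p = 0.0484 by edgeR) was called in no other model. The mean BCC sum was 27.6% of the Con mean with the library and 8.23% without it.

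**Figure D4:**
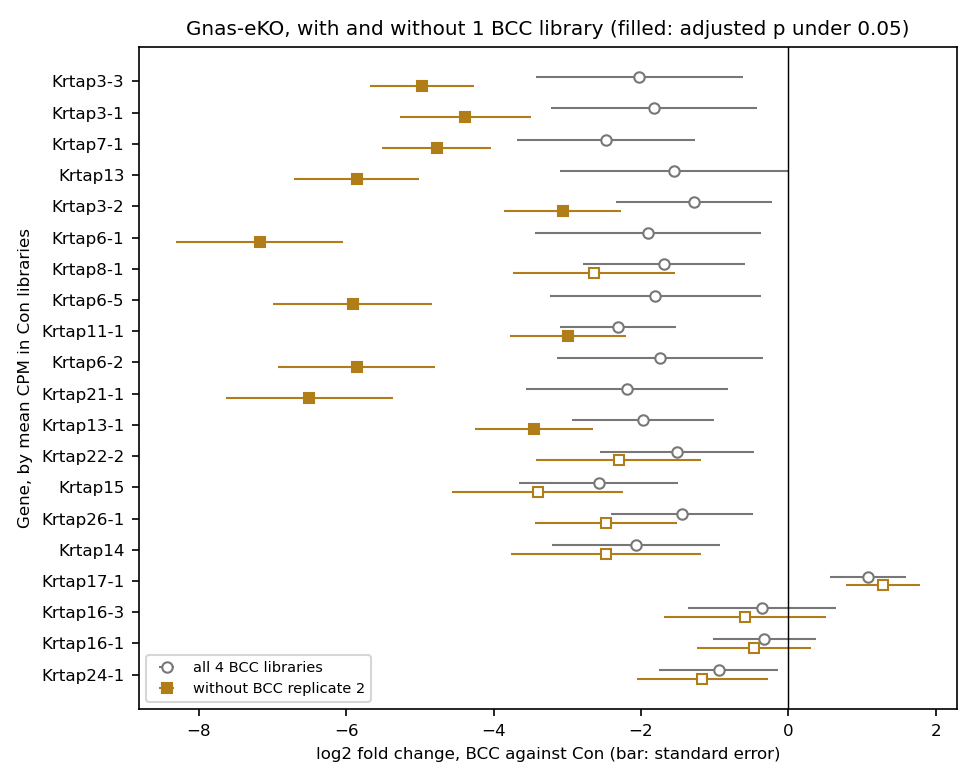
Points give the log2 fold change of BCC against Con in Gnas-eKO for 20 members, with bars of 1 standard error, from all 4 BCC libraries (circles) and without BCC replicate 2 (squares); filled points have an adjusted p under 0.05. No circle is filled and 11 squares are, all to the left of 0, while Krtap17-1 lies to the right of 0 in both fits without a call.

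Differences between the effects in 2 models were tested as an interaction over the 14 libraries of both. The BCC effect in PKI differed from that in SmoM2 for 2 of 27 members tested, both with a higher value in PKI, against 12.6% of all genes called higher and 12.3% lower. The count called higher was 5 without SmoM2 BCC replicate 3 or PKI Con replicate 1, and it was 1 without SmoM2 Con replicate 2 or 3, SmoM2 BCC replicate 4, PKI Con replicate 2 or 3, or PKI BCC replicate 1, 2 or 3. For these fits too the shares of all genes called are not given. Krtap1-3, a high sulfur gene too scarce to be tested within 1 model, was at 0.505, 1.49 and 0.487 CPM in SmoM2 Con and 0.0452, 0.0965, 0.139 and 0.101 CPM in SmoM2 BCC. In PKI it was at 0.253, 0.0631 and 0.180 CPM in Con and 0.616, 0.206, 0.623 and 0.384 CPM in BCC. The difference of the effects was 4.43 ± 0.896 on the log2 scale (SE; adjusted p = 0.00290 by edgeR). Both called members passed the filter only through SmoM2 Con and PKI BCC, the groups where they are high, and 0 members were called with a stricter filter, so neither call is support for a difference. Krtap24-1 differed by 3.35 ± 1.10 (SE; adjusted p = 0.0379 by edgeR), a call lost without SmoM2 Con replicate 2 or 3, SmoM2 BCC replicate 4, PKI Con replicate 2 or 3, or PKI BCC replicate 2 (edgeR adjusted p of 0.0599 to 0.0934). The other 25 members were not called, among them Krtap13 (-3.41 ± 1.58, SE; adjusted p = 0.142 by edgeR) and Krtap21-1, so the lower fold changes of these genes in PKI are not shown to differ from those in SmoM2.

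Against Gnas-eKO, the PKI effect was called different for 0 of 23 members, with 4.57% of all genes called lower and 4.49% higher. DESeq2 called 3 members lower and 1 higher there, and the share of all genes that DESeq2 called is not given here. In edgeR 11 members had an unadjusted p under 0.05, as had 4363 of all 17254 genes tested. Between Gnas-eKO and SmoM2, edgeR called 0 of 25 members, with 0.0991% of all genes called lower and 0.0758% higher, and DESeq2 called none. An unadjusted p under 0.05 in edgeR was found for 2 members and for 1499 of all 17151 genes tested.

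**Figure D5:**
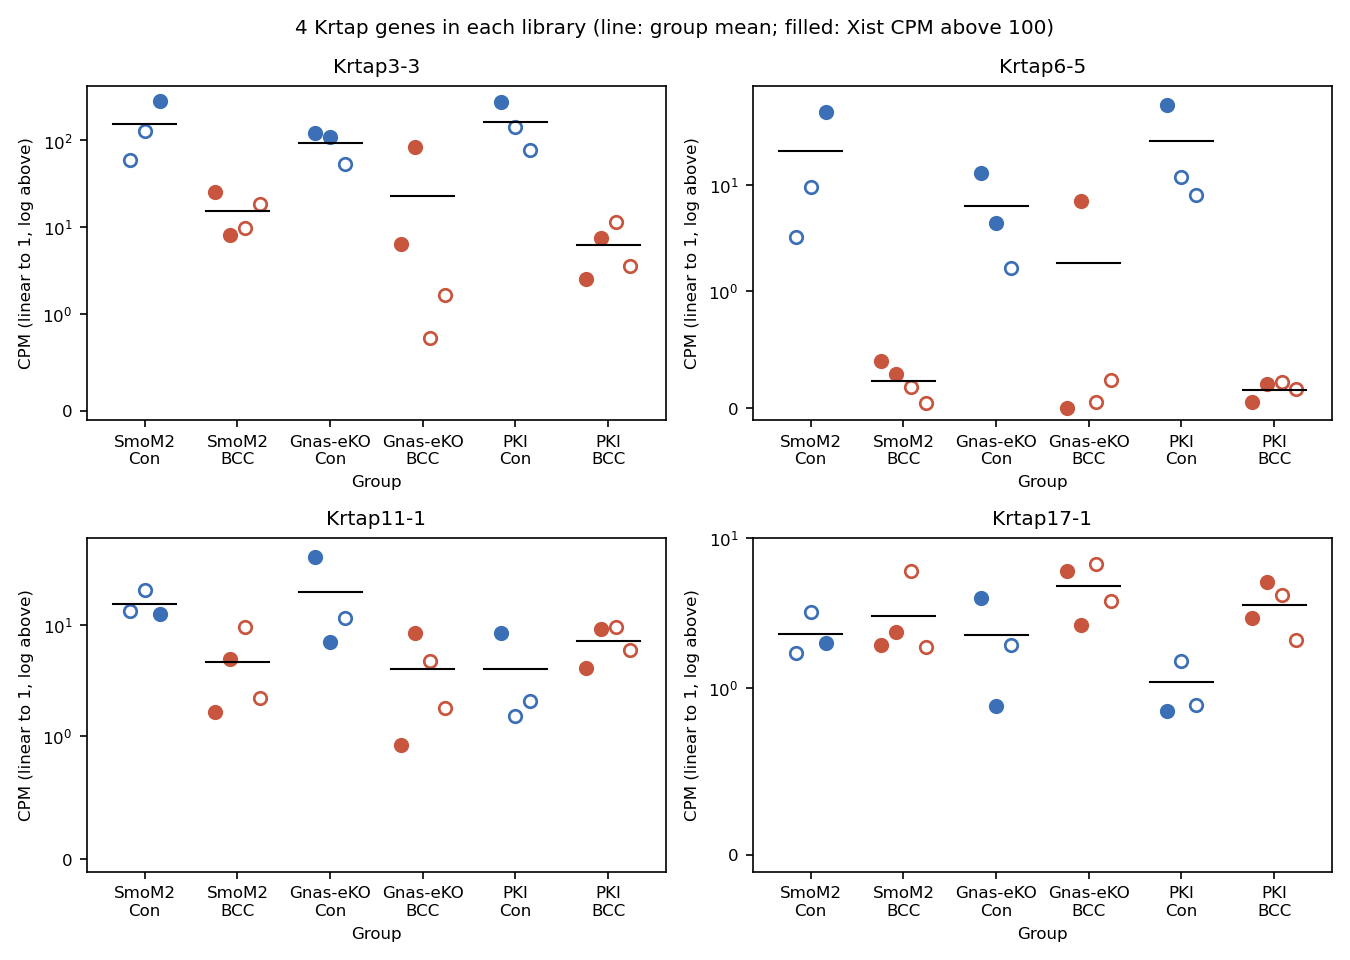
Points give the CPM of Krtap3-3, Krtap6-5, Krtap11-1 and Krtap17-1 in each library, on an axis that is linear up to 1 CPM and logarithmic above, with the group mean as a line and filled points for libraries with Xist above 100 CPM. Krtap3-3 and Krtap6-5 are lower in every SmoM2 and PKI BCC library than in the matching Con libraries, Krtap11-1 overlaps between the groups in PKI, and Krtap17-1 is higher in every PKI BCC library than in PKI Con.

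Genes of the same chromosomal runs without a Krtap name were lower in the same models as the members. Of 28 such genes, 9 were tested in SmoM2 and 9 fell, and in PKI 9 were tested and 9 fell, against 13.5% and 15.8% of all genes, with median log2 fold changes of -4.37 and -6.61. Of these 9, 4 in SmoM2 and 7 in PKI passed the filter only through Con, where they are high. In Gnas-eKO 8 were tested and 0 called, with a median of -2.11, and without BCC replicate 2 all 8 were called lower, with a median of -5.36, each having passed the filter only through Con. Of the 9 tested in some model, 7 share stretches of 50 bases with members (Krtap2-4, Krtap6-1, Krtap6-5 or Krtap13), so their counts are not independent of the members' counts; 2310061N02Rik and 2310079G19Rik share none. 2310079G19Rik, the most abundant of them per kb, was at 97.9, 202 and 361 CPM in SmoM2 Con and at 15.0, 6.85, 13.1 and 22.4 CPM in SmoM2 BCC (log2 fold change -3.93 ± 0.590, SE; adjusted p = 0.00520 by edgeR). It fell by 4.67 ± 0.737 (SE; adjusted p = 0.00532 by edgeR) on the log2 scale in PKI.

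Hard keratins and other shaft proteins were followed as well. Krt84 and Krt36, the keratins of the scale, fell in SmoM2 (-2.99 ± 0.420 and -2.89 ± 0.391, SE; edgeR adjusted p of 0.00331 and 0.00267) and in PKI (-2.48 ± 0.564 and -2.47 ± 0.567, SE; edgeR adjusted p of 0.0184 and 0.0188). Of 13 hard keratins tested in SmoM2, 3 fell (Krt34, Krt36 and Krt84) and 0 rose, against 13.5% and 16.2% of all genes. Their median log2 fold change was -1.96. In Gnas-eKO 0 of 14 were called, with a median of -2.06, against 0.165% of all genes called lower and 1.46% higher. Without BCC replicate 2 it was 4 of 13 lower, against 4.43% of all genes. Of 14 hard keratins tested in PKI, 3 fell and 3 rose, the latter being Krt32, Krt35 and Krt82 of the hair cuticle and cortex, and these counts are near the shares of all genes (15.8% and 18.7%). Among these 6, Krt39, which fell, was tested only through Con and Krt82 only through BCC. All 7 inner root sheath keratins tested in PKI were called higher, against 18.7% of all genes, with a median log2 fold change of 4.53. Of these, Krt26 and Krt72 had passed the filter only through BCC, where they are high, and the other 5 in each group taken alone. In SmoM2 0 of 7 were called and in Gnas-eKO 0 of 7. Krt71, the most abundant of them per kb in Con, was at 66.3, 5.74 and 6.06 CPM in PKI Con and at 626, 545, 498 and 733 CPM in PKI BCC. Trichohyalin (Tchh), a protein of the inner root sheath and medulla, rose in PKI by 4.15 ± 0.642 (SE; adjusted p = 0.00457 by edgeR) on the log2 scale. Hoxc13, a transcription factor that drives hair keratin and Krtap genes, fell in SmoM2 (-0.96 ± 0.205, SE; adjusted p = 0.0112 by edgeR) and was not called in PKI (-0.54 ± 0.306, SE; adjusted p = 0.219 by edgeR). Of 8 other shaft and medulla proteins, 1 was called lower and 5 higher in PKI, against 15.8% and 18.7% of all genes. Their median log2 fold change was 2.11. The 5 were Crym, Dsc2, Dsg4, Padi3 and Tchh, of which Crym and Padi3 passed the filter only through BCC. In SmoM2 1 was called lower and 0 higher, with a median of -1.50, against 13.5% and 16.2% of all genes. The 1 called lower in each of these models is near the share of all genes. In Gnas-eKO 0 were called. The gene called lower in SmoM2 and in PKI was Selenbp1 (-2.64 and -3.35). Of the shaft regulators, 5 of 9 tested fell in SmoM2, among them the medulla regulator Foxq1 (-1.39), and 2 rose: Gata3, a regulator of the inner root sheath (0.67 ± 0.0934, SE), and Lef1 (1.43 ± 0.444, SE). Over all genes 13.5% fell and 16.2% rose in SmoM2, and the 2 that rose are near that share. In PKI 1 of 10 fell (Foxq1, -1.33) and 4 rose, which are Lef1 (3.07 ± 0.318, SE), Dlx3 (1.08), Bmp4 (1.02) and Msx2 (0.73), with a median log2 fold change of 0.38 over the 10. Over all genes 15.8% fell and 18.7% rose in PKI, and the 1 that fell is near that share. Lef1, Dlx3, Bmp4 and Msx2 were named after their values were seen.

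Markers of other cells differed between Con and BCC libraries too. Their counts of called genes can be read against the calls over all genes tested. For SmoM2 these were 13.5% lower and 16.2% higher, for PKI 15.8% lower and 18.7% higher. The Gnas-eKO shares were 0.165% lower and 1.46% higher. Whether counts in such short lists exceed these shares was not tested. The 5 fibroblast genes summed to 17.0 to 39.3 CPM in SmoM2 Con and 385 to 524 CPM in SmoM2 BCC, and to 15.8 to 43.1 CPM in PKI Con and 83.4 to 143 CPM in PKI BCC, with none at 0 across a group. Dcn made up most of these sums, and the genes called higher were Dcn and Col1a2 in SmoM2, Dcn in Gnas-eKO (4.07 ± 0.792, SE; adjusted p = 0.0485 by edgeR), and Dcn and Col3a1 in PKI. The 5 leukocyte genes summed to 28.6 to 94.7 CPM in PKI Con and 212 to 427 CPM in PKI BCC, where 5 of 5 were called higher (Lyz2 tested only through BCC), and overlapped between Con and BCC in SmoM2 and Gnas-eKO. The 4 basal keratinocyte genes summed to 25893 to 33952 CPM in SmoM2 Con and 18895 to 20671 CPM in SmoM2 BCC. Of these 4, Krt5, Krt14 and Itga6 fell and Trp63 rose (0.48 ± 0.0920, SE; adjusted p = 0.00356 by edgeR). The 5 melanocyte genes summed to 153 to 201 CPM in PKI Con and 72.2 to 117 CPM in PKI BCC, where 4 of 5 (Dct, Pmel, Tyr and Tyrp1) fell, and 2 of 5 (Mlana and Tyr) fell in SmoM2. Of 5 suprabasal keratinocyte genes, Ivl, Krt10 and Krtdap fell in SmoM2, and in PKI Krtdap and Lor fell and Krt1 rose. Their sums overlapped between Con and BCC in each of the 3 models. Of 6 bulge and sheath genes, Lgr5, a stem cell marker of the follicle, passed the test upward in every model, with log2 fold changes of 2.99 (SmoM2), 2.87 (Gnas-eKO) and 0.49 (PKI). Sox9 rose as well in SmoM2, and in PKI Krt75 and Krt79 rose and Cd34 and Krt15 fell. The part of these shifts in the Krtap results was not tested.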

How the data were processed

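Per the labels, keratinocyte RNA was sequenced from a stranded polyA preparation. The submitters' processing notes name bcl2fastq 2.20, cutadapt 1.18, STAR 2.7.0f, Partek and the build mm10, without saying what each did, and whether counting used strand is not given in the sources used here. The authors deposited estimated counts per gene without normalization (14.4% of Krtap values and 33.1% of all values are not whole) and a normalized signal table that the authors name as TMM, which served for 1 alternative. No gene in the count table has fewer than 10 counts over the 21 libraries, so rarer genes, and 8 of the 57 protein-coding Krtap genes of GENCODE M21, are not analysed here.

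After rounding, the estimated counts went into edgeR 4.0.16 (R 4.3.3; filterByExpr, TMM, robust quasi-likelihood test, Benjamini-Hochberg over all genes tested, calls at an adjusted p under 0.05), on 7 libraries within a model, 14 for differences between 2 models and 9 for the Con groups. Standard errors are the absolute log2 fold change over the square root of F. CPM used TMM over all 21 libraries, and exon lengths came from GENCODE M21. Protein classes follow the family number, except for Krtap16-3, which was left unclassed, since no protein sequences were used here. The lists were 15 of 16 hard keratins in the table, 8 inner root sheath keratins, shaft regulators, other shaft proteins, genes of the same runs and markers of 7 cell types. Named members are the 5 highest per kb in Con, the 3 lowest and 3 highest called in each model, the 2 lowest and 2 highest called in each difference, the 2 most and 2 least variable in Con, and the 8 highest of those called in 2 models; Krtap8-1, Krtap11-1, Krtap13-1, Krtap15, Krtap16-3, Krtap22-2 and Krtap26-1 were added after their values were seen. Members, lists and rules were chosen with earlier results of these data known. Alternatives were 2 other filters, DESeq2 1.42.0 size factors and test, a joint fit, no robust estimation, a replicate block, leaving out each library and, added after seeing the data, a term for Xist. Libraries of a group all differed by more than counting noise (lowest chi-square per degree of freedom 8.93). The labels do not say that replicates are separate mice, and what the column codes stand for is not stated, so p-values measure the spread between these samples. Floors cover counting error only. Scripts were tested on simulated data.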

Additional observations from a re-analysis of the deposited data

Results flagged for a closer look

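Of 42 groups of 4 BCC values checked (13 named members and the summed level in 3 models), 12 held a value far from the other 3. The rule flags about 1 in 20 groups of normally distributed values. It was applied to CPM, whose distribution was not tested, so that rate may not hold here and nothing is concluded from the count. In Gnas-eKO, BCC replicate 2 was far above the other BCC libraries in the summed level (307 CPM) and in Krtap3-3 (84.1 CPM), Krtap3-1 (67.9 CPM), Krtap7-1 (41.2 CPM), Krtap13 (26.8 CPM), Krtap3-2 (20.6 CPM), Krtap6-1 (8.57 CPM), Krtap6-5 (7.02 CPM), Krtap6-2 (4.82 CPM) and Krtap21-1 (3.05 CPM). These members vary together, so they are not 10 separate signals. Krtap17-1 was at 5.97 CPM in SmoM2 BCC replicate 3, and Krtap24-1 at 1.34 CPM in PKI BCC replicate 2, each above the other 3 libraries of its group.

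For 2 members the BCC effect differed between PKI and SmoM2 by the interaction test: Krtap1-3, with a difference of 4.43 on the log2 scale, and Krtap24-1, with a difference of 3.35. Both genes had means under 1 CPM in each group and passed the filter on low counts only through SmoM2 Con and PKI BCC, where they are high; with a stricter filter neither was called.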

How the results depend on the processing

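The count called lower in SmoM2 was 13, 7 with a replicate block, and 6 to 16 without 1 library. In PKI 2 members were called higher, 4 without a filter on low counts, 1 with a stricter filter and 1 to 4 without 1 library; the count called lower was 9 to 10 without 1 library. The PKI median of -4.43 was -0.78 without a filter, -4.89 with a stricter filter and -2.35 in the joint fit, which test 49, 16 and 28 members, and -5.09 to -1.24 without 1 library. The medians without 1 library were -3.71 to -2.99 in SmoM2 and -3.23 to -0.61 in Gnas-eKO, where 0 to 11 members were called lower. For PKI minus SmoM2 the 2 higher effects were 0 with a stricter filter, 5 with DESeq2 (and 2 lower), 1 in the joint fit, 1 with the replicate block, and 1 to 5 without 1 library (0 to 2 lower). For PKI minus Gnas-eKO, where edgeR called none, lower effects numbered 1 without a filter, 3 with DESeq2 (and 1 higher), 1 in the joint fit and 4 with the Xist term, and 0 to 1 in either direction without 1 library. With the Xist term 1 member differed among Con groups. As a share of the Con mean, the BCC sum was 6.55% to 16.2% in SmoM2, 8.23% to 41.0% in Gnas-eKO and 5.41% to 13.5% in PKI without 1 library. Krtap17-1 in SmoM2 was -0.14 to 0.73 without 1 library, the negative value without BCC replicate 3. Shares of all genes called are not given for these alternative fits or for the block below, so their counts describe the members only. The cause of the shifts between settings was not tested.

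The replicate numbers share no stated origin, and same-numbered BCC and Con libraries did not all deviate together (correlations of -0.127 to -0.0867 in SmoM2, 0.0411 to 0.184 in Gnas-eKO and -0.0662 to 0.282 in PKI), so the block is no pairing of libraries. With it Krtap3-1, Krtap3-2, Krtap3-3, Krtap6-1, Krtap6-2 and Krtap13 were not called in SmoM2 (edgeR adjusted p of 0.0924 to 0.294), nor Krtap3-1, Krtap3-3 and Krtap7-1 in PKI (0.0764 to 0.171), so that 8 members were called lower and 2 higher in PKI and none in Gnas-eKO. Members under about 0.2 CPM are near the level of 3 counts, where differences are not detectable.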
